A study of Mus musculus with 12 samples.

Results

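The 10 genes described here encode dopamine receptors and other G protein-coupled receptors of the striatum: Drd1, Drd2, Drd3, Drd4, Gpr6, Gpr83, Chrm1, Chrm4, Cnr1 and Hrh3. They were chosen by name, with earlier results of these data known, from 18193 genes that had a probe set of their own. Counts of these genes beside the share over all features are therefore descriptions and no test of the list. Of the 45037 tested probe sets, 15 were paired with 1 of the 10 genes alone. All 15 are described, and a gene is represented by its brightest probe set, the one with the highest mean over the 12 arrays. Striatal RNA of 12 C57BL/6 mice was measured on Affymetrix Mouse Genome arrays, 1 array per mouse with no batch given in the labels, and the values are log2 signals, so a difference of 1 is a 2-fold change. The groups were HdhQ92/Q92 mice, which are homozygous for a knock-in of 92 CAG repeats from exon 1 of the human HD gene into mouse Htt (older symbol Hdh), and wild-type mice, with 3 mice of each genotype at 18 months and 3 at 3 months. Ages at 18 months were 567 to 596 days in Q92 mice (2 females, 1 male) and 596 to 604 days in wild-type mice (2 females, 1 male). At 3 months both genotypes were 100 to 103 days old, with 2 females and 1 male among Q92 and 1 female and 2 males among wild-type mice. The knock-in is in the germ line and so in every cell type, and the mice are named here by group and animal number (Q92_18m_66 is Q92 mouse 66 at 18 months).

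These receptors carry the modulatory input to striatal projection neurons. D1 receptors act through the olfactory type of stimulatory G protein and raise cyclic AMP in neurons of the direct pathway, while D2 receptors act through inhibitory G proteins and lower it in neurons of the indirect pathway. Muscarinic, cannabinoid, histamine and orphan receptors feed into the same adenylyl cyclase or into phospholipase C and calcium. Projection neurons are the cells most affected in Huntington's disease.

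The labelled tissue was checked against marker genes. All 11 measured projection neuron markers, among them Ppp1r1b (DARPP-32), Pde10a and Penk, gave signal, and their mean log2 signals over the 12 arrays ran from 6.87 for Pdyn to 11.36 for Gad1. The targeted gene was measured by 4 Htt probe sets, of which 0 passed in any of the 5 comparisons. Correlations between arrays ran from 0.983 to 0.995. Mouse Q92_18m_66 stood apart in several marker lists, though it was not alone in this. Relative to the mean of the 12 mice, its thalamic and pallidal neuron markers averaged 1.10 and its cortical excitatory neuron markers -0.63 on the log2 scale, and its projection neuron markers averaged -0.79. The differences of the receptor genes at 18 months are therefore given with and without this mouse. In tissue RNA, fewer cells of a type and less RNA per cell cannot be told apart.

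The promoter windows of the receptors on which the results turn are shown first. RefSeq windows on build GRCm38.p6, from 250 bases before to 50 after an annotated gene start, were found for 9 of the 10 genes (12 windows). Those of Gpr6 and Gpr83 are shown because these genes fell between the ages in Q92 mice, and those of Drd2 and Drd1 because these receptors define the indirect and the direct pathway. Each is printed 5′ to 3′, and capitals mark TGACG (the core of the cAMP response element), GGGCGG (the GC box) and TATAAA (the TATA box) on either strand.
Gpr6, chr10:41072241-41072540, minus strand: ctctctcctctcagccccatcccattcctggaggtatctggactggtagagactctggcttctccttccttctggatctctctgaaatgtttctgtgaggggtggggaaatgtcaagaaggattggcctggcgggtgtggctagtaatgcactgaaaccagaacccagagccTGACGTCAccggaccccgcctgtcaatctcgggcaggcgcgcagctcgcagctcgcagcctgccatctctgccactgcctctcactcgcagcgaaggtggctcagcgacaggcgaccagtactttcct
Gpr83, chr9:14859960-14860259, plus strand: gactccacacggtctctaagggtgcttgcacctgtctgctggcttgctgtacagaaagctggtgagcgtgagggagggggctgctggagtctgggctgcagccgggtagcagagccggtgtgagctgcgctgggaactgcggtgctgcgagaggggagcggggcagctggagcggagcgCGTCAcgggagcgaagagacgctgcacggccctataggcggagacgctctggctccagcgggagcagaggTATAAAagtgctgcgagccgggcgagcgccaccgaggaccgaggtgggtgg
Drd2, chr9:49340153-49340452, plus strand: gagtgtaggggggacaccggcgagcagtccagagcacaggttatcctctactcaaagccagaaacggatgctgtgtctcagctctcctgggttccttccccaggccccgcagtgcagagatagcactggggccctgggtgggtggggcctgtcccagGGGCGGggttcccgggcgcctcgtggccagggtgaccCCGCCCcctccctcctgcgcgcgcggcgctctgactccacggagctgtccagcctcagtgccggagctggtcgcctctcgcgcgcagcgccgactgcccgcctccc
Drd1, the first of 2 windows, chr13:54055609-54055908, minus strand: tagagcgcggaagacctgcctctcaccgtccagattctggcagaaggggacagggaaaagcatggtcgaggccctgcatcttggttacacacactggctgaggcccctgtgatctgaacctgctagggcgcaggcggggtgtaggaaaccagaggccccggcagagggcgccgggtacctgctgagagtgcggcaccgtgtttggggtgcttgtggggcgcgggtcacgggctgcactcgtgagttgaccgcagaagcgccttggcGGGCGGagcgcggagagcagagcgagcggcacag

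TGACG or its reverse complement occurred in 2 of the 12 windows, those of Gpr6 and Gpr83. In Gpr6 the letters occurred on both strands and overlapped in a single stretch. Over all 32851 windows of this length, 20.8% held these letters, so 2 of 12 is near the share of all windows. GGGCGG occurred in 7 windows of 6 genes (Drd1, Drd2, Drd4, Chrm4, Cnr1 and Hrh3), against 35.7% of all windows. TATAAA occurred in the window of Gpr83, against 13.6% of all windows. Its first letter there was at position -1, so the letters overlap the annotated gene start. The windows ranged from 42.0% G and C in Drd3 to 79.0% in Hrh3, and the median of all windows was 52.7%. Matches describe letters in these windows, and no binding was measured.

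**Figure D1:**
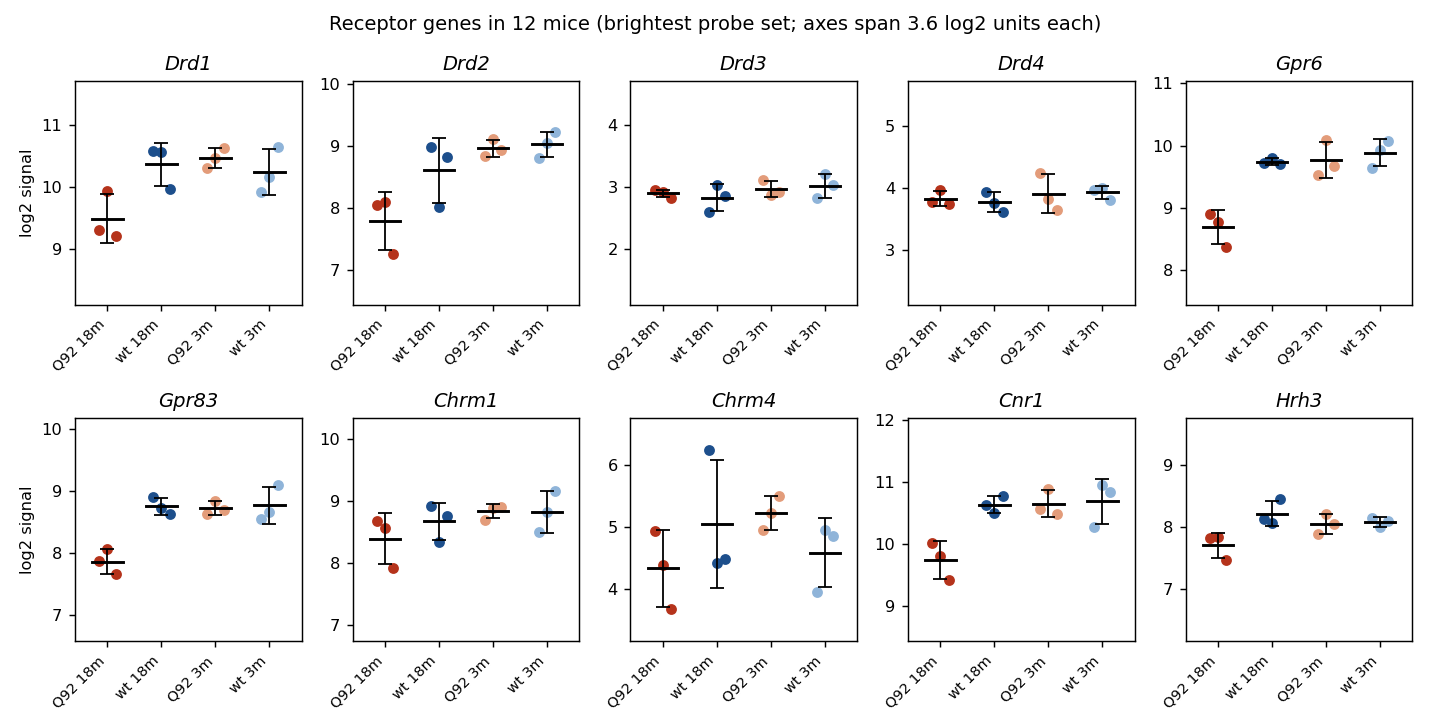
Log2 signal of the brightest probe set of each receptor gene (y axis) by genotype at 18 and at 3 months (x axis). Points are mice, the thick bar is the mean and the whiskers are 1 SD (n = 3). In Gpr6, Gpr83, Cnr1, Hrh3 and Drd1 the 3 Q92 mice at 18 months lie below the 3 wild-type mice of that age, while Drd3 and Drd4 stay near 3 and 4 in all groups.

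The first question was whether receptor genes differed between Q92 and wild-type striatum at 18 months. Gpr6, Gpr83, Cnr1, Drd1 and Hrh3 were lower in every Q92 mouse than in any wild-type mouse, by 0.51 to 1.05 on the log2 scale. Drd2 and Chrm4 had lower means with overlapping mice, Chrm1 differed by less, and the dim probe sets of Drd3 and Drd4 showed no such difference. With limma 0 of the 10 genes passed an adjusted p of 0.05 over all probe sets, where 24 of 45037 probe sets (0.0533%) passed. At an unadjusted p under 0.05 there were 6 of 10 genes, against 7.90% of all probe sets and 1460 of 18193 genes. Groups that did not overlap, with Q92 lower, were found in 5 of 10 genes, against 7.51% of 18193 genes.

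Drd1 was high in young and in old wild-type striatum. In Q92 mice at 18 months its brightest probe set (1456051_at) read 9.32, 9.95 and 9.22, against 10.58, 10.57 and 9.97 in wild-type mice. The groups were separate by a narrow margin, with mouse Q92_18m_25 just under mouse wt_18m_17. The log2 difference was -0.88 (SE 0.23, 95% interval -1.37 to -0.38, limma adjusted p = 0.262), and -0.74 without mouse Q92_18m_66 (adjusted p = 0.370). The other Drd1 probe set (1455629_at) read 9.29, 9.55 and 8.46 in Q92 mice and 10.29, 9.96 and 10.07 in wild-type mice, a difference of -1.01 (adjusted p = 0.156). Both probe sets thus placed the Q92 mice below the wild-type mice.

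Drd2 had 1 probe set, which read 8.05, 8.10 and 7.27 in Q92 mice at 18 months and 9.0, 8.02 and 8.83 in wild-type mice. Mouse wt_18m_12 lay within the Q92 range, so the groups overlapped. The difference was -0.81 (SE 0.25, adjusted p = 0.390), and without mouse Q92_18m_66 it was -0.54 (adjusted p = 0.518). Without mouse wt_18m_12 it was -1.11 (adjusted p = 0.164). To set the receptors of both pathways side by side, the Drd2 signal was subtracted from the Drd1 signal within each mouse. This quantity averaged 1.69 ± 0.37 in Q92 mice aged 18 months and 1.76 ± 0.72 in wild-type mice of that age (SD, n = 3 each), a difference of -0.07 with a 95% interval of -1.36 to 1.23 (exact permutation test, two-sided, p = 1). The interval is too wide to say that both receptors shifted alike.

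The D3 receptor is known from the ventral striatum and the islands of Calleja, and the D4 receptor is sparse in striatum. Their probe sets were below the 40th percentile of mean signal. Drd3 read 2.94, 2.91 and 2.82 in Q92 mice at 18 months and 2.59, 3.02 and 2.86 in wild-type mice, a difference of 0.07 (95% interval -0.21 to 0.35, adjusted p = 0.953). Drd4 read 3.77, 3.96 and 3.74 in Q92 mice and 3.93, 3.76 and 3.61 in wild-type mice, a difference of 0.05 (95% interval -0.26 to 0.37, adjusted p = 0.971). A second Drd4 probe set (1422830_s_at, of a kind that can bind several transcripts) differed by -0.01. Without mouse Q92_18m_66 the differences were 0.11 for Drd3 and 0.10 for Drd4. At such low signal a change of these transcripts may not be detectable.

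Gpr6 encodes a constitutively active receptor that stimulates adenylyl cyclase and is concentrated in indirect pathway neurons. It gave the largest difference of the 10 genes at 18 months. The 3 Q92 mice read 8.90, 8.78 and 8.37, and the 3 wild-type mice 9.72, 9.81 and 9.70. The wild-type values lay close together (SD 0.06), and every Q92 mouse was well below them. Gpr6 was 2.08-fold lower (log2 difference -1.05, SE 0.17, 95% interval -1.42 to -0.69), just outside the threshold (adjusted p = 0.0557). Without mouse Q92_18m_66 the difference was -0.90 (adjusted p = 0.121). Of all 45037 probe sets, 24 had a smaller p in this comparison.

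Gpr83, a receptor for which neuropeptide ligands have been proposed, followed with a pair of probe sets that read alike. The brighter (1423415_at) read 7.88, 8.06 and 7.66 in Q92 mice at 18 months and 8.90, 8.72 and 8.64 in wild-type mice. The other (1439569_at) read 7.77, 7.63 and 7.22 in Q92 mice and 8.75, 8.44 and 8.49 in wild-type mice. On both, all Q92 mice were below all wild-type mice. The differences were -0.89 (SE 0.15, adjusted p = 0.0617) and -1.02 (SE 0.17, adjusted p = 0.0577). Without mouse Q92_18m_66 the brighter gave -0.79 (adjusted p = 0.140).

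Cnr1 encodes the CB1 cannabinoid receptor, which sits on projection neuron terminals and inhibits transmitter release. Its brightest probe set (1434172_at) read 10.02, 9.80 and 9.42 in Q92 mice at 18 months and 10.63, 10.49 and 10.77 in wild-type mice, with no overlap. The difference was -0.89 (SE 0.19, 95% interval -1.30 to -0.48, adjusted p = 0.157), and -0.72 without mouse Q92_18m_66 (adjusted p = 0.252). A much dimmer probe set (1419425_at) was also separate between the groups and differed by -0.52 (adjusted p = 0.504).

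Hrh3, the inhibitory histamine H3 receptor, read 7.82, 7.84 and 7.48 in Q92 mice at 18 months and 8.13, 8.08 and 8.45 in wild-type mice. These groups did not overlap either, and the difference was -0.51 (SE 0.13, adjusted p = 0.262), and -0.39 without mouse Q92_18m_66 (adjusted p = 0.371). The muscarinic receptors differed less clearly. Chrm1, the M1 receptor that acts through phospholipase C, read 8.68, 8.56 and 7.92 in Q92 mice and 8.91, 8.34 and 8.76 in wild-type mice, a difference of -0.28 (95% interval -0.74 to 0.18, adjusted p = 0.817). Only mouse Q92_18m_66 lay below all wild-type mice, and the difference was -0.05 without it. Its second probe set (1450833_at) differed by -0.23.

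Chrm4, the M4 receptor that opposes D1 signalling in direct pathway neurons, had the widest spread of the 10 genes at 18 months. It read 4.93, 4.38 and 3.69 in Q92 mice and 6.23, 4.42 and 4.49 in wild-type mice. Mouse wt_18m_9 was far above the rest, and the other wild-type mice lay within the Q92 range. The difference was -0.71 (SE 0.45, adjusted p = 0.756). Leaving out mouse wt_18m_9 gave -0.12, and leaving out mouse Q92_18m_66 gave -0.39.

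Mouse Q92_18m_66 had the lowest signal of all 12 mice in 8 of the 10 genes, the exceptions being Drd3 and Drd4. The median difference of the 10 genes at 18 months was -0.76, against -0.00 over all genes, and it was -0.47 without this mouse. Projection neuron markers had lower means together with the receptors. Their summed signal on the log2 scale was 13.50 to 13.95 in Q92 mice and 14.33 to 14.37 in wild-type mice of this age. All 11 had lower means in Q92, of which 1 (Penk) passed and 8 had an unadjusted p under 0.05. Over all probe sets these shares were 0.0533% and 7.90%. Signals were summed before log2 was taken, so the brightest markers of a list weigh most. The 5 genes listed as markers of the ventral striatum and islands of Calleja summed to 11.34 to 11.72 in Q92 and 12.19 to 12.33 in wild-type mice. All 5 had lower means, 4 at an unadjusted p under 0.05 and 0 passing. Arpp21 (mean of the 12 arrays 11.53) weighs most in this sum, the others lying at 6.21 to 9.29. The 7 astrocyte markers summed to 12.56 to 12.76 in Q92 and 12.80 to 12.89 in wild-type mice. These also all had lower means, 2 at an unadjusted p under 0.05 and 0 passing. The 7 oligodendrocyte markers summed to 14.11 to 14.35 in Q92 and 14.32 to 14.42 in wild-type mice, 5 with lower means, 3 at an unadjusted p under 0.05 and 0 passing. The 8 interneuron markers (11.44 to 11.98 in Q92 and 11.37 to 11.74 in wild-type mice) and the 8 microglia markers (11.28 to 12.06 in Q92 and 11.60 to 12.10 in wild-type mice) had 6 lower means each and 0 passing. The 9 choroid plexus and ependyma markers summed to 11.85 to 13.29 in Q92 and 9.32 to 13.86 in wild-type mice, 6 with lower means and 0 passing. The part of these lists in the result was not tested. The 10 cortical markers summed to 10.87 to 12 in Q92 and 11.48 to 11.87 in wild-type mice, 7 with higher and 3 with lower means in Q92. Camk2a (mean of the 12 arrays 10.47) and Nrgn (10.01) weigh most in this sum, the other cortical markers lying at 4.65 to 7.17. Ttr (11.52) likewise weighs most in the choroid plexus and ependyma sum. With the mean of the cortical markers as a covariate the difference was -1.11 for Gpr6 (limma adjusted p = 0.0410) and -0.93 for Gpr83 (adjusted p = 0.0576). The slope of this covariate is estimated within groups, where mouse Q92_18m_66 was low in cortical markers and in receptors alike. This fit therefore cannot decide the part of cortical tissue in the result, which was not tested. The 8 thalamic and pallidal markers summed to 9.99 to 12.02 in Q92 and 10.40 to 11.43 in wild-type mice, 6 with lower means in Q92, and their part in the result was not tested. The 18S ribosomal RNA signal, a sign of RNA composition, was 5.21 to 6.41 in Q92 and 5.07 to 5.39 in wild-type mice. With it as a covariate the difference was -1.0 for Gpr6 and -0.77 for Gpr83 (adjusted p = 0.180 for both).

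**Figure D2:**
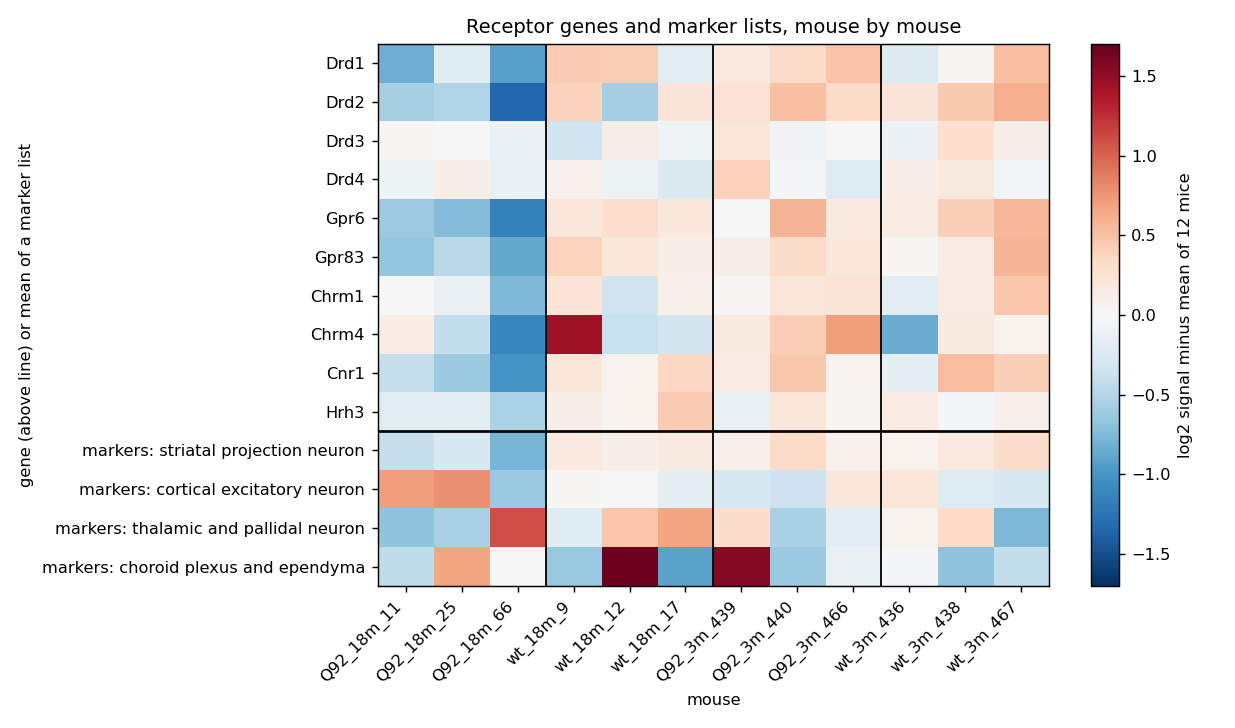
Log2 signal minus the mean of the 12 mice (colour) for the brightest probe set of each receptor gene and for the mean of 4 marker lists (rows) in each mouse (columns, grouped by genotype and age). The Q92 mice at 18 months are below the mean in Drd1, Drd2, Gpr6, Gpr83, Cnr1 and Hrh3, and mouse Q92_18m_66 is lowest in these and in Chrm1 and Chrm4, with low cortical and high thalamic markers.

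At 3 months the question was whether the receptors already differed in young Q92 mice. The brightest probe sets differed by -0.12 to 0.23 in 9 of the 10 genes, and by 0.64 in Chrm4. In limma 0 of 10 genes passed (all with adjusted p = 1.00), where 5 of 45037 probe sets (0.0111%) passed, and 0 of 10 reached an unadjusted p under 0.05, against 2.64% of all probe sets. Gpr6 read 9.53, 10.09 and 9.68 in Q92 mice and 9.65, 9.93 and 10.08 in wild-type mice, with overlapping groups. Gpr83 read 8.62, 8.84 and 8.70 in Q92 mice and 8.54, 8.67 and 9.10 in wild-type mice. The groups overlapped in both genes, and for Gpr83 the wild-type mice were more widely spread. For Gpr6 the difference was -0.12 (95% interval -0.48 to 0.25) and for Gpr83 -0.05 (95% interval -0.37 to 0.27).

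The dopamine receptors of both pathways were likewise intermingled at 3 months. Drd1 read 10.31, 10.47 and 10.63 in Q92 mice and 9.92, 10.16 and 10.65 in wild-type mice (difference 0.23, 95% interval -0.27 to 0.72). Drd2 read 8.85, 9.12 and 8.94 in Q92 mice and 8.82, 9.05 and 9.22 in wild-type mice (difference -0.06, 95% interval -0.61 to 0.48). Cnr1 read 10.57, 10.89 and 10.48 in Q92 mice and 10.27, 10.95 and 10.83 in wild-type mice, and these groups overlapped as well (difference -0.04). The differences of Hrh3 (-0.03), Chrm1 (0.01), Drd3 (-0.05) and Drd4 (-0.02) were smaller than their SE.

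Chrm4 was the exception at 3 months, with 4.95, 5.22 and 5.51 in Q92 mice and 3.95, 4.95 and 4.86 in wild-type mice. It was the 1 gene of 10 whose groups did not overlap with Q92 higher, against 2.30% of 18193 genes, but the nearest mice of both groups read 4.95 and the separation was lost after quantile normalisation. The difference of 0.64 (SE 0.45, adjusted p = 1.00) was 0.32 without mouse wt_3m_436.

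**Figure D3:**
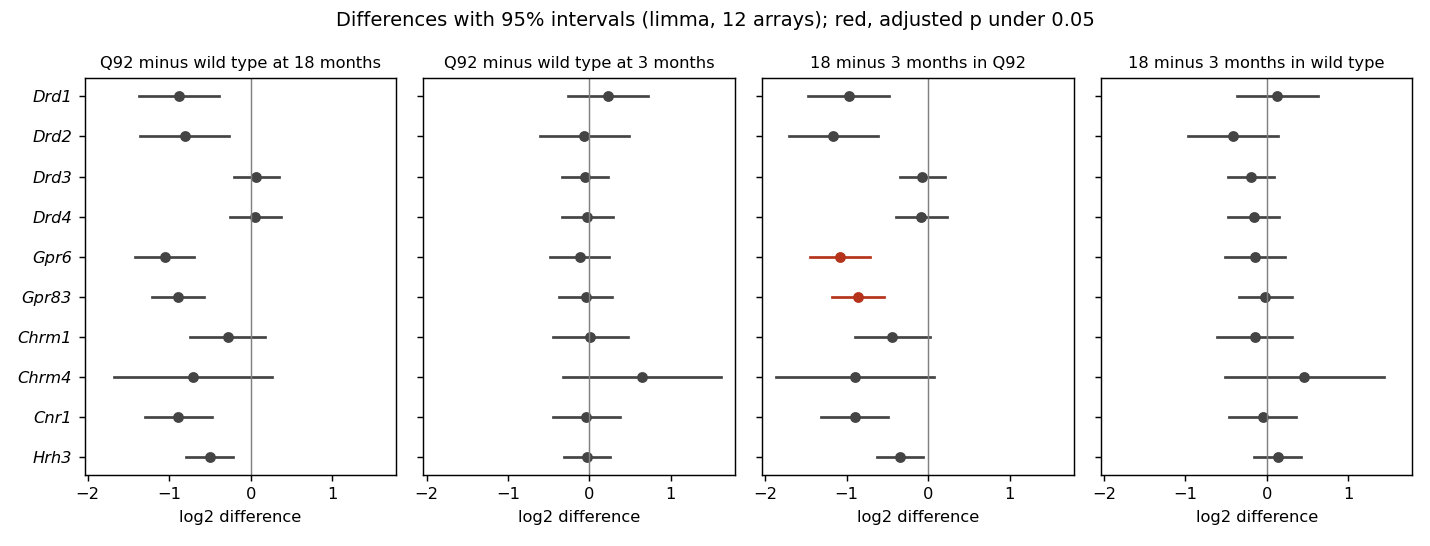
Log2 differences (x axis) with 95% intervals from limma for the brightest probe set of each receptor gene (y axis), in the comparisons of Q92 with wild type at 18 and at 3 months and of 18 with 3 months in Q92 and in wild type. Red marks an adjusted p under 0.05, reached by Gpr6 and Gpr83 between the ages in Q92 mice; at 3 months all intervals include 0.

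Between the ages, Gpr6 and Gpr83 fell in Q92 mice, Gpr6 by 2.12-fold and Gpr83 by 1.81-fold at 18 months relative to 3 months, and the means of all 10 genes were lower. The Q92 mice at 18 months are the same as in the comparison with wild type, so these results share samples. In limma 2 of 10 genes passed and both were lower, where 0.206% of probe sets passed (93 of 45037) and 0.164% passed with a lower value. At an unadjusted p under 0.05 there were 6 of 10 genes, against 10.6% of all probe sets and 2265 of 18193 genes. In 8 of 10 genes all Q92 mice at 18 months were below all Q92 mice at 3 months, against 7.52% of 18193 genes. The median difference of the 10 genes was -0.88, against 0.01 over all genes, and it was -0.65 without mouse Q92_18m_66.

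For Gpr6 the difference between the ages in Q92 mice was -1.08 (SE 0.17, limma adjusted p = 0.0313). Its means were 8.68 ± 0.28 at 18 months and 9.77 ± 0.29 at 3 months (SD, n = 3 each). The call ended without mouse Q92_18m_66 (-0.93, adjusted p = 0.0786), Q92_3m_439 (0.0621), Q92_3m_440 (0.140) or Q92_3m_466 (0.0581). Both Gpr83 probe sets passed, the brighter with -0.86 (SE 0.15, adjusted p = 0.0403) and the other with -1.11 (SE 0.17, adjusted p = 0.0259). The brighter read 7.86 ± 0.20 at 18 months and 8.72 ± 0.11 at 3 months. Its call ended without mouse Q92_18m_66 (-0.76, adjusted p = 0.125), Q92_18m_11 (0.123), Q92_3m_439 (0.117), Q92_3m_440 (0.203) or Q92_3m_466 (0.0965). Both calls also ended when the fit used the 6 Q92 arrays alone (adjusted p = 0.116 for Gpr6 and 0.0841 for Gpr83) and with age in days as a covariate (0.118 and 0.144), and that of Gpr83 with sex as a covariate (0.0661).

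The other receptors with separate Q92 groups between the ages did not pass. Drd2 had the largest difference, -1.16 (SE 0.25, adjusted p = 0.106), with 7.80 ± 0.47 at 18 months and 8.97 ± 0.14 at 3 months. Drd1 differed by -0.98 (adjusted p = 0.125) on its brightest probe set and by -1.06 (adjusted p = 0.0867) on the other, and Cnr1 by -0.90 (adjusted p = 0.0956). For each of these genes the old Q92 mice lay wholly below the young ones. Chrm4 (-0.89, adjusted p = 0.517), Chrm1 (-0.44, adjusted p = 0.495) and Hrh3 (-0.34, adjusted p = 0.374) also had separate groups. Drd3 (-0.07) and Drd4 (-0.08) overlapped between the ages.

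In wild-type mice no receptor gene passed between the ages. In limma 0 of 10 genes passed, where 23 of 45037 probe sets (0.0511%) did, and 0 of 10 reached an unadjusted p under 0.05, against 10.6% of all probe sets. In 0 of 10 genes were the ages separate in either direction, against 8.81% of genes lower and 9.76% higher at 18 months. The median difference was -0.10. Gpr83 differed by -0.02 (95% interval -0.34 to 0.30) and Cnr1 by -0.05 (95% interval -0.46 to 0.36). The widest differences were 0.46 for Chrm4 (adjusted p = 0.734) and -0.42 for Drd2 (adjusted p = 0.582). Without mouse wt_18m_9 the difference of Chrm4 turned to -0.13, and without mouse wt_3m_436 it was 0.14. Drd2 was low at 18 months in mouse wt_18m_12 alone, with 8.02, and without it the difference was -0.12.

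Whether the genotypes differed more at 18 than at 3 months was tested as the difference of both log2 differences. It was -1.10 for Drd1 (SE 0.32), -0.94 for Gpr6 (SE 0.24), -0.85 for Cnr1 (SE 0.27), -0.84 for Gpr83 (SE 0.21) and -0.48 for Hrh3 (SE 0.19). These 5 of 10 genes had an unadjusted p under 0.05, against 5.18% of all probe sets and 1056 of 18193 genes. The limma unadjusted p was 0.00161 for Gpr83 and 0.00177 for Gpr6. Among other probe sets, that of Cnr1 (1419425_at) gave -0.48 and did not reach this level (limma unadjusted p = 0.097). That of Gpr83 (1439569_at) gave -1.11 (0.000468, adjusted p = 0.615) and that of Drd1 (1455629_at) -0.98 (0.0073, adjusted p = 0.935). After adjustment 0 of 10 genes passed in limma (adjusted p from 0.804 to 0.986 on the brightest probe sets), as did 0% of all probe sets. For Chrm4 the change was -1.35 (SE 0.63, adjusted p = 0.946) and for Drd2 -0.75 (SE 0.36, adjusted p = 0.946).

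Other genes of the same signalling chain were read from 8 lists, also chosen with earlier results of these data known. Among 48 further receptors 36 had a probe set of their own, and Adora2a and Drd5 were among the 12 without. At 18 months 0 of these 36 passed in limma and 10 had an unadjusted p under 0.05, against 7.90% of all probe sets. The median difference was 0.02 (20 higher, 16 lower). In 7 of the 36 all Q92 mice lay below all wild-type mice, against 7.51% of 18193 genes. In 1 of the 36 they lay above, against 1183 of the 18193 genes. Htr4, a stimulatory serotonin receptor, differed by -0.94 (adjusted p = 0.148) and Htr1b, an inhibitory serotonin receptor of projection neuron terminals, by -0.91 (adjusted p = 0.0577). Sstr2, a somatostatin receptor, differed by 0.79 (adjusted p = 0.543). The Sstr2 groups overlapped, with 7.22, 7.11 and 6.29 in Q92 and 6.62, 5.70 and 5.94 in wild-type mice. Htr1b was the 1 receptor of this list that passed between the ages in Q92 mice, where it fell 2.11-fold (difference -1.08, SE 0.15, adjusted p = 0.0175), to 7.78 at 18 months, against 8.86 at 3 months.

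The ligand side came next, in the same comparison at 18 months, where 7.90% of all probe sets had an unadjusted p under 0.05. Of the genes for dopamine synthesis, transport and breakdown, 0 of 6 passed in limma and 0 had an unadjusted p under 0.05 (median 0.00). The largest differences were -0.31 for Th, tyrosine hydroxylase, 0.20 for Ddc, the decarboxylase that forms dopamine, and -0.14 for the vesicular transporter gene Slc18a2. Of the acetylcholine and histamine genes 0 of 7 passed and 1 had an unadjusted p under 0.05 (median -0.06), with -0.54 for the vesicular acetylcholine transporter gene Slc18a3 (adjusted p = 0.480), -0.34 for the choline transporter gene Slc5a7 and -0.10 for Ache, acetylcholinesterase. Of the endocannabinoid genes 0 of 8 passed and 3 had an unadjusted p under 0.05 (median 0.12). Faah, which breaks down anandamide, differed by 0.58 (adjusted p = 0.158) and its Q92 mice lay above all wild-type mice. So did those of Cnrip1, which encodes a CB1-interacting protein (0.31, adjusted p = 0.597), and Abhd6, a lipase of 2-arachidonoylglycerol (0.22, adjusted p = 0.574). These were 3 of 8 genes with separate groups and Q92 higher, against 1183 of 18193 genes.

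Downstream of the receptors, 0 of 12 G protein alpha subunit genes passed at 18 months in limma, with 0 at an unadjusted p under 0.05 (median -0.06). Over all probe sets 7.90% had an unadjusted p under 0.05, the share to set beside each count of this paragraph. Gnal, the olfactory type stimulatory subunit that couples D1 and adenosine receptors in striatum, differed by -0.32 (adjusted p = 0.653), Gnai2 by -0.19 and Gnaz by 0.17. Of the beta and gamma subunit genes 0 of 13 passed and 5 had an unadjusted p under 0.05 (median 0.08). Of these 5, Gnb2, Gnb5 and Gng7 were lower and Gng3 and Gng13 higher in Q92. The largest differences of the list were 0.59 for Gng3 (adjusted p = 0.242), 0.50 for Gng4 (adjusted p = 0.722, not among the 5) and -0.47 for Gng7 (adjusted p = 0.443), the striatal gamma subunit that pairs with Gnal. Of 8 adenylyl cyclase genes 0 passed and 2 had an unadjusted p under 0.05 (median -0.00), with -1.01 for Adcy5, the main striatal cyclase and also 1 of the 11 projection neuron markers (adjusted p = 0.123), 0.45 for Adcy1 (adjusted p = 0.495) and -0.45 for Adcy7 (adjusted p = 0.812). Among receptor kinases and arrestins 0 of 6 passed and 0 had an unadjusted p under 0.05 (median -0.03), and Grk5 (-0.25), Arrb1 (-0.16) and Arrb2 (-0.14) gave the largest differences.

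**Figure D4:**
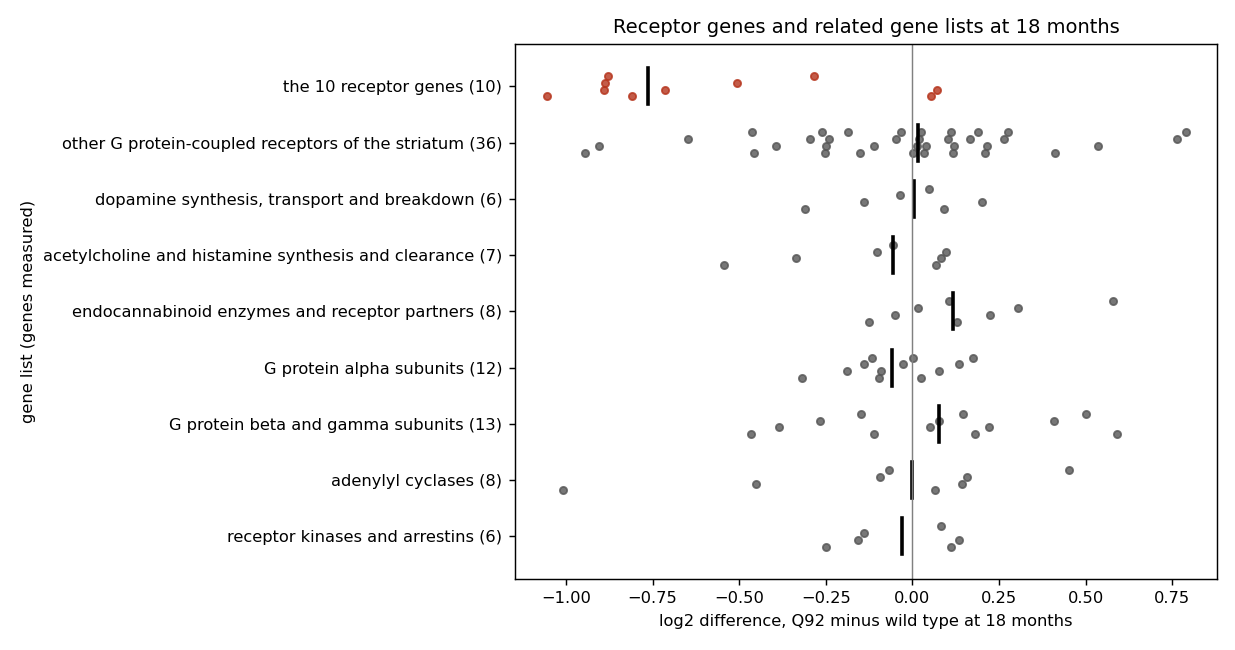
Log2 difference of Q92 minus wild type at 18 months (x axis) for each gene (point, brightest probe set) of the 10 receptor genes and of 8 related lists (y axis, number of genes measured in parentheses). Black bars are medians. The median is -0.76 for the 10 receptor genes and lies between -0.06 and 0.12 for the other lists, where Adcy5, Htr4 and Htr1b are lowest.

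Genes with patterns most like a receptor gene were ranked by Pearson's correlation over the 12 arrays among 11207 genes with a mean log2 signal above 4.98, the median over all probe sets, which leaves out Drd3, Drd4 and Chrm4. The 12 arrays share the groups, so that any gene low in old Q92 mice scores high, and the values are descriptions with no test. For Gpr83 the 5 closest genes were Adcy5, Sh2d5, Gnb5, Tbc1d8 and Nomo1 (r from 0.97 to 0.98). For Gpr6 they were Mllt10, Ryr3, Strn, Pcp4l1 and Tbc1d8 (r from 0.97 to 0.98). Cnr1 was closest to Gabrd, Kcnab1, Thsd7a, Gpr6 and Rxrg (r from 0.95 to 0.97), and Drd1 to Akap9, Tpm1, Fam102b, Gpr83 and Sh2d5 (r from 0.92 to 0.94). Drd2 was closest to Pde1b, Car11, Arg2, Kcnt1 and Gng7 (r from 0.95 to 0.98), Chrm1 to Unc13a, D430041D05Rik, Msl1, Frrs1l and Icam5 (r from 0.95 to 0.97), and Hrh3 to Peli2, Rnf103, Pou3f1, Camk2b and Gdpd5 (r from 0.89 to 0.95). Among the receptor genes themselves, Gpr6 appeared beside Cnr1 and Gpr83 beside Drd1.

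The ranking was repeated on deviations from the group means, which removes the differences between groups. Among the 5 closest genes on both measures were Mllt10 for Gpr6 (r = 0.99 on deviations), Pde1b (0.97) and Kcnt1 (0.97) for Drd2, Frrs1l (0.98) and D430041D05Rik (0.96) for Chrm1, and Tpm1 for Drd1 (0.89). For Cnr1, Hrh3 and Gpr83 0 of the 5 genes were shared between the measures. Their neighbours over the 12 arrays had r on deviations from 0.82 to 0.94 for Gpr83. It ran from 0.80 to 0.91 for Cnr1 and from 0.76 to 0.89 for Hrh3. These neighbours were picked on the same 12 arrays, of which the deviations are a part, so neither measure is a separate check. The low signals of mouse Q92_18m_66 also remain in the deviations.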

How the data were processed

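The authors deposited log2 signals per probe set, and per the submitters' processing notes these were made with RMA in the affy package. RMA subtracts background, equalises the signal distributions of arrays and combines the probes of a set, so that differences are relative within an array. Arrays have no read depth, and their number limits the precision. The sources used here do not say whether all 12 arrays were normalised together. The values, from 2.03 to 13.8, were used as deposited. One limma 3.58.1 model (R 4.3.3) with 1 mean for each of the 4 groups used all 12 arrays (8 residual and 4.50 prior degrees of freedom). Benjamini-Hochberg adjustment ran over 45037 probe sets within each of 5 contrasts, leaving out 64 control probe sets, and the test was tried on simulated data. Gene names came from the platform's annotation table, where 34945 had 1 gene, 932 several and 9160 none. 34741 gene identifiers were found in the RefSeq table of GRCm38.p6. The labels give each mouse its own number, so replicates are animals. The named genes are the 10 receptors, the list genes that passed or had the 3 largest differences at 18 months (Gnb2, Gnb5 and Gng13 were named after their values were seen), and the 5 genes closest to each bright receptor. Members, lists and alternatives were chosen with earlier results of these data known. Promoter windows are from RefSeq (GRCm38.p6), and a window of Chrm1 was not used here. The alternatives were quantile normalisation, leaving out dim probe sets, an intensity trend with a robust prior, covariates for sex, age in days (centred within each age), cortical markers and 18S RNA, only the arrays compared, the mean of a gene's probe sets, and leaving out each mouse.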

Additional observations from a re-analysis of the deposited data

How the results depend on the processing

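With 3 mice per group, calls near the threshold depended on the setting, and the causes were not tested. At 18 months 1 receptor gene passed after quantile normalisation (Gpr6, adjusted p = 0.0415) and with the cortical covariate (Gpr6, 0.0410), and 2 passed with a trend and robust prior (Gpr6 0.0245, Gpr83 0.0278) and with the mean of a gene's probe sets, where fewer features are tested (Gpr6 and Gpr83, 0.0264 each). With age in days as a covariate Gpr6 gave -0.91 (limma adjusted p = 0.631) and Gpr83 -0.92 (0.565) at 18 months. Leaving out each of the 6 mice aged 18 months in turn gave 0 receptor genes passing at that age. Below, single mice are those of the groups compared. Between the ages in Q92 mice, the count of 2 was 1 with sex as a covariate and 0 with age in days or with only the arrays compared, and 0 to 2 without single mice. Drd2 (0.0473) passed there with the cortical covariate and Drd1 (0.0441) with the mean of its probe sets. The median difference of the receptors was -0.53 at 18 months, -0.54 for the change with age and -0.64 between the ages in Q92 mice with age in days as a covariate. Age in days partly coincided with genotype at 18 months, and with it Chrm4 turned to 0.08. Without single mice the median ran from -0.84 to -0.47 at 18 months, from -0.15 to 0.03 at 3 months, from -0.89 to -0.58 for the change with age, from -0.92 to -0.65 between the ages in Q92 mice and from -0.20 to 0.02 in wild-type mice. Receptors with separate groups numbered 5 to 7 at 18 months and 8 between the ages in Q92 mice. They numbered 0 to 4 lower in wild-type mice and 1 to 2 higher at 3 months, where quantile normalisation left 0. Separate groups stay separate when a mouse is left out, so these counts can only stay or rise and cannot show a loss.

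Over all probe sets, 24 passed at 18 months, against 45 with a trend and robust prior, 55 with the cortical covariate, 11 with 18S or only the arrays compared, 3 with age in days, and 9 to 25 without single mice. At 3 months 5 passed, against 1 with only the arrays compared and 1 to 4 without single mice. For the change with age 0 passed, against 3 with a trend and robust prior, 1 with the cortical covariate, 2 with gene means and 0 to 3 without single mice. In wild-type mice 23 passed between the ages, against 7 after quantile normalisation or with only the arrays compared, 0 with sex, 59 with the cortical covariate, 12 with 18S, 2 with age in days, 15 with gene means and 0 to 23 without single mice. In Q92 mice 93 passed, against 303 with the cortical covariate, 221 with 18S, 12 with age in days, 29 with only the arrays compared and 7 to 87 without single mice. Leaving out dim probe sets, Drd3 and Drd4 among them, changed no receptor call. No paired analysis was possible because animal numbers are not shared between groups.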
